A study of Danio rerio with 48 samples.

Results

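Adult zebrafish exposed for 24 h to the lowest of 3 cobalt concentrations, measured at 39.7 mg/L, were compared with cobalt controls that received no metal. The comparison used 8 of the 48 arrays of the series, 4 per group, taken by their labelled metal and dose. The fish were 6 to 9 months old and were held at 25°C in flow-through glass tanks, and RNA from whole pulverised fish was pooled before one-colour labelling with the dye Cy3. The other cobalt groups used here were exposed to 46.3 and 59.5 mg/L, with 4 arrays each. Low nickel, at 42.4 mg/L, and low chromium, at 56.5 mg/L, also had 4 arrays each. Nickel at 51 and 64 mg/L and chromium at 69.9 and 80.6 mg/L, 4 arrays each, entered the fits as part of the spread. The labels describe the controls of nickel and chromium, 4 arrays each, as shared. Their titles pair the arrays by replicate number with a letter a or b and do not say whether a pair shares a pool. Neither the number of fish in a pool nor the number of tanks behind a group is given in the labels. The p-values below thus reflect variation among pooled RNA samples and their arrays, part of which may be technical.

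Cobalt is a trace metal held at the centre of vitamin B12. In excess it interferes with the iron-dependent prolyl hydroxylases that mark hypoxia-inducible factor for breakdown, and cobalt salts are therefore widely used in cell culture to mimic low oxygen. It is also known to displace other divalent metals and to promote oxidative stress. In fish the gill is the main surface through which dissolved metals enter, with liver and kidney as sites of handling and excretion.

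The array carried 43714 probes for 21903 transcripts, identified by 41681 Ensembl and 2033 Vega transcript IDs. Of these transcript IDs, 0 appeared in the gene-name tables used here, so the probes below are given by ID without a gene name or role. Hypoxia, metal-handling, stress and tissue-marker genes could therefore not be looked up, and the labelled tissue, whole organism, could not be checked against markers. Between 66.4% and 68.5% of probes on each of the 8 arrays lay above a log2 intensity of 5, a background limit below which all values of 27 dark control rows fell on these arrays. The number of arrays, 4 per group, limits the precision of each mean.

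Low-cobalt and control arrays stood apart. Over 19414 probes with a mean above log2 6 on the 16 cobalt arrays, the 16 pairs made of a control and a low-cobalt array correlated between 0.950 and 0.965. Pairs of controls correlated between 0.973 and 0.985, and pairs of low-cobalt arrays between 0.966 and 0.981, so no cross-group pair was as close as any pair within a group. The spread between replicates was similar in both groups, with a median SD of 0.213 log2 units among controls and 0.230 among low-cobalt arrays over the same probes. The arrays farthest from their group mean were low replicate 4, with a root mean square deviation of 0.323 log2 units, and control replicate 2, with 0.292, against 0.218 to 0.279 on the other 6.

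The steepest increase under the naming rule, which ranks transcripts by the log2 fold change of their brighter probe, was ENSDART00000055287_2. Its log2 intensity was 9.97, 10.34, 9.89 and 9.27 on the 4 control arrays and 13.87, 14.54, 14.03 and 15.03 on the 4 low-cobalt arrays. The groups did not overlap, and 3.53 log2 units separated the highest control from the lowest exposed array. The log2 fold change was 4.50 ± 0.25 (SE, n = 4 each), equal to 22.6-fold (limma, adjusted p = 7.23e-08). The other probe of the transcript, ENSDART00000055287_1, lay near background in controls, at 5.61 ± 0.04, and at 11.60 ± 0.39 after low cobalt (SD, n = 4 each). It had the largest log2 fold change of all 43714 probes, 5.99 ± 0.18 (SE), equal to 63.5-fold (limma, adjusted p = 2.64e-10). The 2 probes thus moved in the same direction by different amounts.

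ENSDART00000010477_1 was the next increase. Controls read 7.23, 7.13, 7.24 and 6.21, and low-cobalt arrays 10.72, 11.17, 11.47 and 11.23. Control replicate 4 lay below the other 3 controls, and every exposed array lay above all controls by at least 3.47 log2 units. The log2 fold change was 4.19 ± 0.26 (SE, n = 4 each), equal to 18.3-fold (limma, adjusted p = 1.77e-07). ENSDART00000010477_2, its other probe, gave 3.87 ± 0.19 (SE), adjusted p 2.82e-08 by the same test.

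The largest decrease among the brighter probes was that of ENSDART00000082927_1. It read 11.30, 11.08, 11.82 and 11.91 in controls and 8.59, 8.67, 8.28 and 7.98 after low cobalt. All exposed arrays were lower, by at least 2.40 log2 units, and all stayed above the background limit. The log2 fold change was -3.15 ± 0.41 (SE, n = 4 each), an 8.87-fold lower intensity, with a limma adjusted p of 0.000201. Mid cobalt, where this probe spread most among the cobalt groups (SD 1.01, n = 4), enters that SE. ENSDART00000082927_2 fell by a similar amount, with a log2 fold change of -3.12 ± 0.38 (SE) and an adjusted p of 0.000129 by the same test. This decrease was therefore seen with both probes of the transcript.

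ENSDART00000076172_y_2 fell from 9.49, 10.12, 9.21 and 10.44 in controls to 7.52, 7.48, 6.44 and 5.55 at low cobalt. The exposed arrays were spread more widely than the controls, with an SD of 0.94 against 0.56, and replicate 4 was the lowest of them. The log2 fold change was -3.07 ± 0.40 (SE, n = 4 each), an 8.37-fold lower intensity (limma, adjusted p = 0.000236). That SE also pools mid and high cobalt, where the SD was 0.41 and 0.40 (n = 4 each). ENSDART00000076172_y_1 gave -2.57 ± 0.31 (SE), adjusted p 0.000116 by the same test. The sources used here do not say what the y in the names of these probes means. In whole-fish RNA, fewer cells of a type and less RNA per cell cannot be told apart, for this and every other decrease given here.

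**Figure D1:**
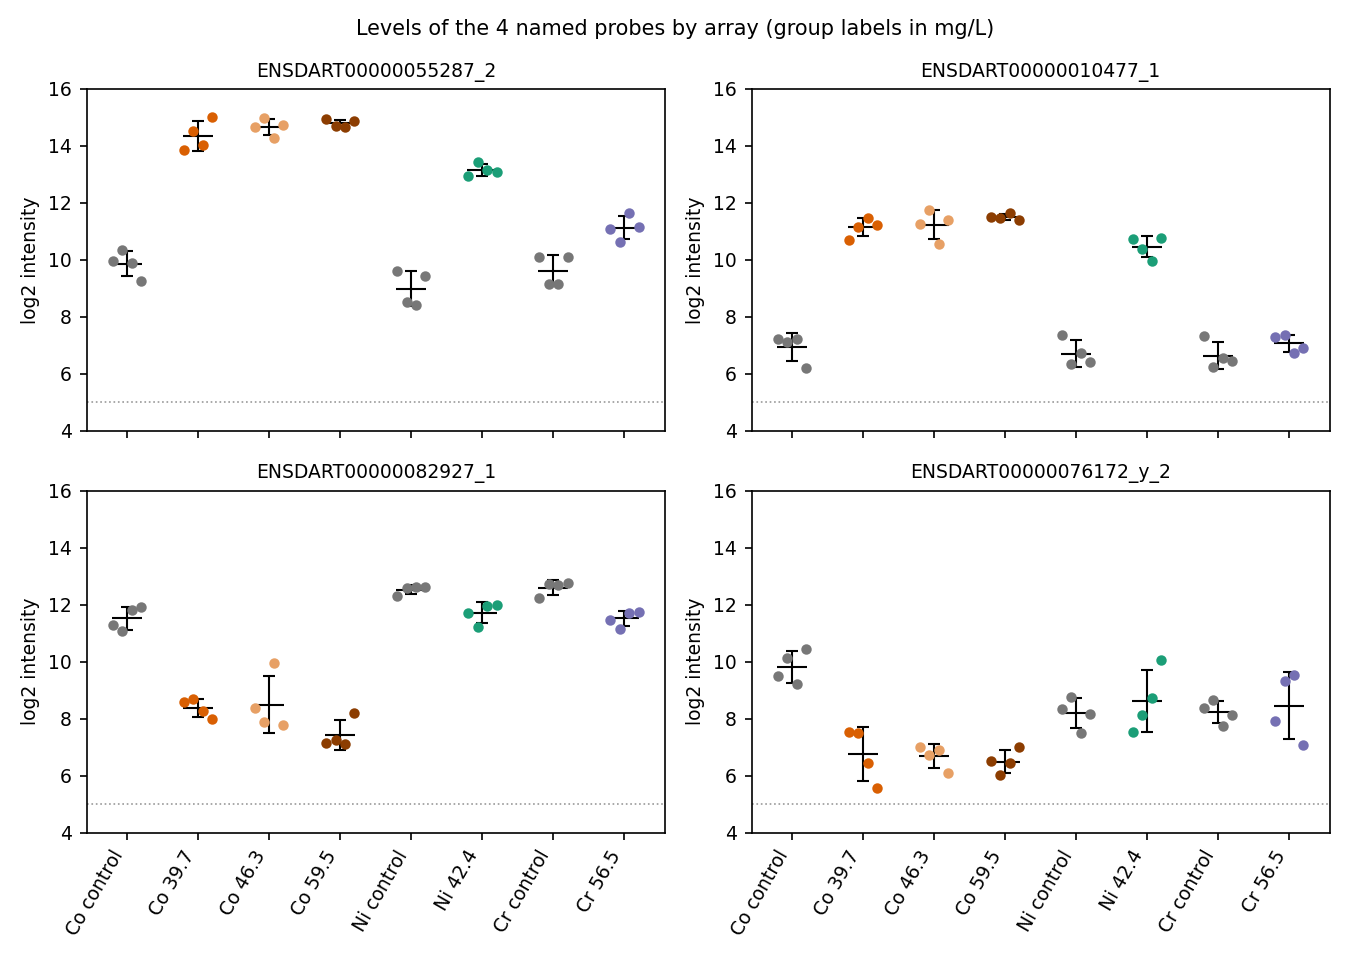
Log2 intensity (y axis) of the 4 named probes on each array of 8 groups (x axis, with measured concentrations in mg/L). Points are arrays, bars the mean ± SD (n = 4), and the dotted line the background limit of log2 5. The low-cobalt arrays lie above all cobalt controls for the 2 increases in the upper row and under all of them for the 2 decreases in the lower row.

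Across the array, 2840 of 43714 probes, or 6.50%, passed the limma test at an adjusted p under 0.05. Of these, 1619 rose (3.70% of all probes) and 1221 fell (2.79%), and at an unadjusted p under 0.05 there were 7460. The calls covered 1119 transcripts with a probe that rose and 911 with a probe that fell. Among the probes that rose, the median log2 fold change was 0.70, with quartiles of 0.51 and 0.92. Among those that fell it was -0.69, with quartiles of -0.96 and -0.52. The median over all probes was -0.00440. Calls of at least 2-fold made up 1.38% of all probes, 319 higher and 286 lower, and calls of at least 4-fold numbered 54 higher and 34 lower.

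The far end of the range leaned upward by count. At least 8-fold, 17 probes of 11 transcripts were higher and 4 probes of 3 transcripts lower. A probe near the background limit of log2 5 in controls can rise 8-fold but has little room to fall. ENSDART00000055287_1, with a mean of 5.61 in cobalt controls, was among those that rose. How much of the lean comes from this limit was not tested. The smallest changes that passed had a size of 0.20 log2 units upward and 0.21 downward. Of the calls, 1492 higher and 1130 lower had all 4 exposed arrays on the same side of all 4 controls. Over all probes such separation was found for 6.19% upward and 5.36% downward. A gap of more than 1 log2 unit between the groups was found for 98 higher and 52 lower calls, and the median gap was 0.27 and 0.25 log2 units.

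**Figure D2:**
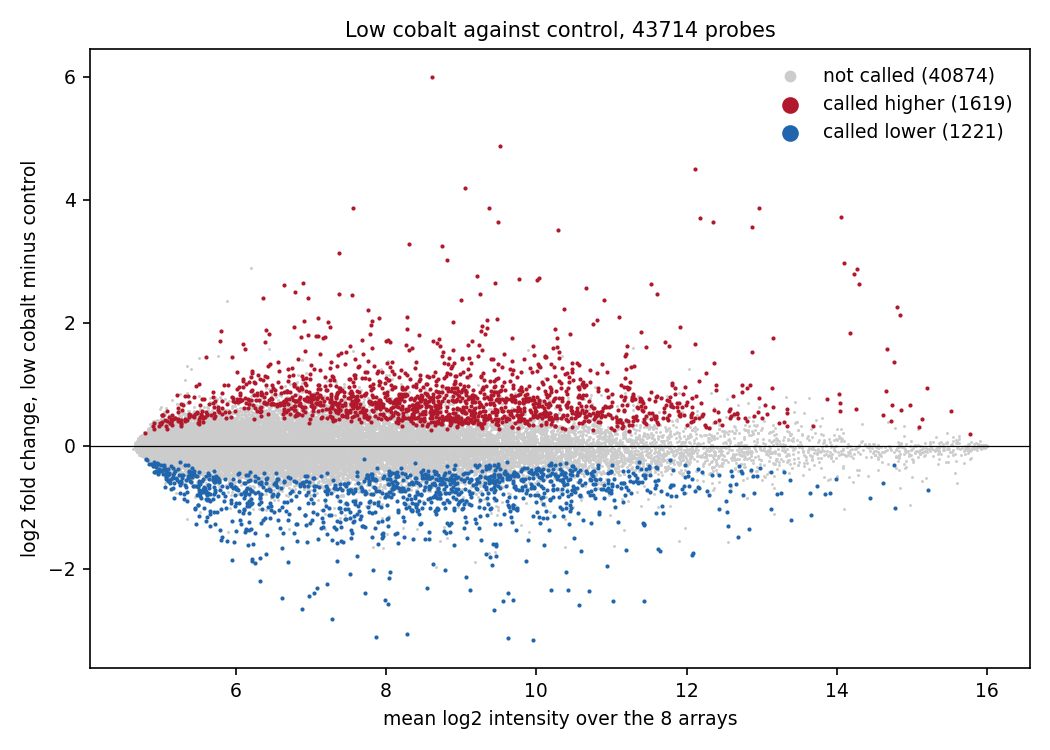
Log2 fold change of low cobalt against control (y axis) for all 43714 probes, by the mean log2 intensity over the 8 arrays (x axis). Red points are the 1619 probes called higher, blue the 1221 called lower and grey the rest; the largest changes, up to 5.99, are upward.

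Scaling the arrays to spike-in control rows in place of the deposited scaling moved the balance between directions. With that scaling the median of all probes was 0.12 log2 units above control, and 2353 probes passed, 1826 higher and 527 lower, so that 77.6% of the calls were higher against 57.0%. It kept 1507 of the 1619 higher calls and 526 of the 1221 lower ones, with 0 changing sign. The mean level of the 5 spike-in rows was 11.00 ± 0.16 after low cobalt and 11.12 ± 0.12 in controls (SD, n = 4 each). Low minus control was -0.12 (exact permutation test, 2-sided p = 0.286, where 0.0286 is the smallest p this design allows). Changes here are given relative to the deposited scaling.

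Of the 2840 calls, 1711 were also made in each of 8 repeats of the fit that left out 1 of the 8 arrays. These were 1033 of the higher calls, or 63.8%, and 678 of the lower ones, or 55.5%. Large changes were kept more often by count, with 304 of the 319 higher and 244 of the 286 lower calls of at least 2-fold among them. The 8 repeats made between 2148 and 2635 calls each.

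Calls were unevenly spread over intensity. Among 14222 probes with a mean at or below log2 5 on the cobalt arrays, 0.288% were called, against 2.94% from 5 to 6, 7.23% from 6 to 8, 17.7% from 8 to 10 and 23.9% from 10 to 12. Above 12, 14.7% of 1072 probes were called, 116 higher and 42 lower. At or below log2 5 there were 4 higher and 37 lower calls. From 5 to 6 there were 92 against 204, and from 10 to 12 there were 361 against 203. The means behind these classes include the exposed arrays, which moves a rising probe to a brighter class and a falling one to a dimmer class. The balance by class is thus partly fixed by the direction of change. On the control arrays alone, the median level was 8.35 for the higher calls and 8.87 for the lower calls. The error of the fold change was largest in the middle of the range, with a median SE of 0.192 log2 units from 6 to 8 and 0.122 from 10 to 12.

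**Figure D3:**
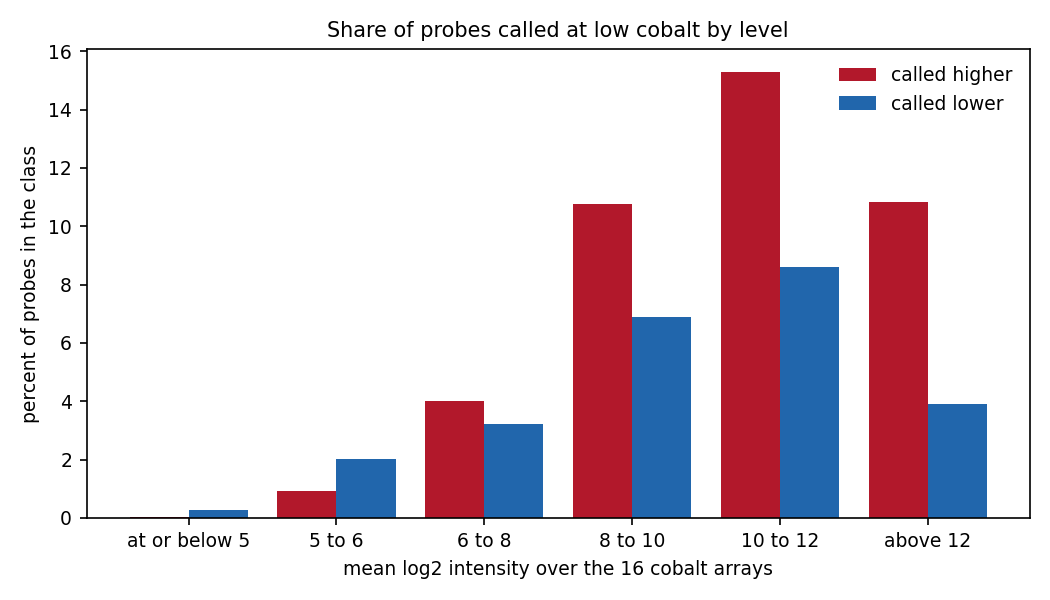
Percent of probes called higher (red) and lower (blue) at low cobalt (y axis) in 6 classes of mean log2 intensity over the 16 cobalt arrays (x axis). Higher calls outnumber lower ones above log2 6, reaching 15.3% of probes from 10 to 12, and lower calls outnumber higher ones below it. The mean includes the exposed arrays, so the direction of a change partly sets the class of a probe.

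A small number of probes lay above background on all arrays of a single group. At or below the limit on all 4 controls and above it on all 4 low-cobalt arrays were 33 of the 43714 probes. Of these, 14 were called higher, and the low-cobalt means of the 33 reached 6.75. The reverse held for 36 of the 43714 probes, of which 23 were called lower, with control means up to 6.12. The median means of these probes where detected were 5.24 and 5.25, close to the limit. On all 8 arrays 9138 probes lay at or below it, and 0 of them were called.

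Most transcripts, 21811, had exactly 2 probes, which gave a second reading of each change from the same RNA. Of 2022 such transcripts with a call, 810 had both probes called, 500 higher and 310 lower, and 0 had probes called in opposite directions. Where both were called, their log2 fold changes differed by a median of 0.12. In the other 1212 transcripts, the uncalled probe moved in the direction of the called one in 1120 cases. There the median change was 0.57 log2 units for the called probe and 0.34 for its partner, and 57 of the uncalled partners lay at or below background on all 8 arrays. Vega probes were called less often by count than Ensembl probes, 3.44% against 6.65%, with 20 higher and 50 lower.

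The control arrays of nickel and chromium gave another baseline. They took no part in the calls, but the low-cobalt arrays that chose the probes are used again here, which favours the called direction, so the values are a description with no test. The cobalt arrays differed from them in their control rows: the 5 spike-in rows averaged 11.12 ± 0.12 in cobalt controls against 13.25 ± 0.16 on the nickel-labelled and 13.31 ± 0.17 on the chromium-labelled controls (SD, n = 4 each), and array set and metal cannot be told apart. Of the 1619 higher calls, the low-cobalt mean lay above the nickel-labelled controls for 1563, or 96.5%, and above the chromium-labelled ones for 1558, where 50.6% and 52.0% of all probes did. Their median difference from these controls was 0.73 log2 units in both cases. Of the 1221 lower calls, the low-cobalt mean lay below these controls for 1104 and 1089, or 90.4% and 89.2%, with medians of -0.57 and -0.57, where 49.4% and 48.0% of all probes did. Cobalt controls themselves lay 0.12 and 0.15 log2 units above the nickel-labelled and chromium-labelled controls in the median lower call, and 0.01 and 0.02 above them in the median higher call.

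The named decreases showed such differences in baseline. ENSDART00000076172_y_2 averaged 9.82 ± 0.56 in cobalt controls but 8.19 ± 0.52 and 8.22 ± 0.38 in the nickel-labelled and chromium-labelled controls (SD, n = 4 each). Its low-cobalt mean of 6.75 was below all 3. ENSDART00000082927_1 was lower in cobalt controls, at 11.53 ± 0.40, than in the other control groups, at 12.52 ± 0.15 and 12.60 ± 0.25 (SD, n = 4 each), and the low-cobalt mean of 8.38 was again below all of them.

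The next question was whether 39.7 mg/L already gave the levels seen at higher cobalt. Compared directly with low cobalt, the mid dose of 46.3 mg/L had 0 probes past the limma threshold, with 2175 at an unadjusted p under 0.05 and 0.705 as the smallest adjusted p. At 59.5 mg/L, 65 probes, or 0.149%, differed from low cobalt, 27 (0.0618%) above and 38 (0.0869%) below it. The balance of directions depended on the scaling: with the spike-in rows 642 passed, 611 above low cobalt and 31 below, and with the replicate number as a block 111 passed, 59 above and 52 below. Of the 65 probes found with the deposited scaling and no block, 52 were not called at low cobalt against control. Another 5 were among the probes called higher and 8 among those called lower, and 7 of those 8 fell further at the high dose. The count of 65 depended on single arrays: it was 7, 4, 15 and 110 without low replicates 1, 2, 3 and 4.

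Against the same controls, 2840 of 43714 probes were called at low cobalt, 3556 at mid and 5846 at high. The probes called at low cobalt had similar median changes against these controls at each dose. For the 1619 higher calls the median log2 fold change was 0.70 at 39.7 mg/L, 0.70 at 46.3 mg/L and 0.76 at 59.5 mg/L. For the 1221 lower calls it was -0.69, -0.67 and -0.78. The low-dose values chose these probes and the 3 comparisons share their control arrays, so the medians describe the probes and are no test of likeness. The direct difference from low cobalt had a median of 0.07 in the higher calls and -0.07 in the lower calls at the high dose, and of 0.02 in both sets at mid. At an unadjusted limma p under 0.05, the high dose lay below low cobalt for 253 of the 1221 lower calls and above it for 82. Of the 1619 higher calls it lay above low cobalt for 202 and below it for 88. Over all probes 4498 of 43714 differed at that limit. That count was not split by direction, so whether the lean in the 2 sets exceeds the one over all probes was not tested.

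The named probes were compared between doses in the same way. ENSDART00000055287_2 read between 14.27 and 14.99 at mid and between 14.66 and 14.94 at high cobalt, and high minus low was 0.43 ± 0.25 (SE), with a limma adjusted p of 0.621. ENSDART00000010477_1 was at 11.24 ± 0.50 and 11.50 ± 0.11 (SD, n = 4 each), and high minus low was 0.36 ± 0.26 (SE), adjusted p 0.723 by the same test. ENSDART00000082927_1 was lower at high cobalt, at 7.43 ± 0.52 against 8.38 ± 0.32 (SD, n = 4 each), a difference of -0.94 ± 0.41 (SE) that did not pass, with a limma adjusted p of 0.425. For ENSDART00000076172_y_2 high minus low was -0.26 ± 0.40 (SE), adjusted p 0.916 by the same test. The other probes of these transcripts, in the same order, gave 0.24 ± 0.18, 0.43 ± 0.19, -1.11 ± 0.38 and -0.71 ± 0.31 (SE). None passed, with limma adjusted p-values of 0.75, 0.438, 0.272 and 0.434.

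Low cobalt was also set against the lowest exposures to nickel and chromium, each against the control arrays labelled for that metal, to see which changes were shared. Concentrations differed, at 39.7, 42.4 and 56.5 mg/L. Low nickel raised 5.03% of all probes and lowered 4.61%, and low chromium raised 5.68% and lowered 5.59%. Of the 1619 probes that rose at low cobalt, 920 also rose at low nickel, which is 56.8% of the cobalt list and 41.9% of the nickel list. With low chromium 739 were shared, 45.6% of the cobalt and 29.8% of the chromium list. Probes that fell were shared less by count: with low nickel 363 of 1221 in the cobalt list (29.7%) and of 2016 in the nickel list, and with low chromium 295, which is 24.2% of the cobalt and 12.1% of the chromium list. With the nickel calls kept as they were, the 363 shared decreases became 186 when the cobalt arrays were scaled to the spike-in rows and 215 without replicate 4 of the cobalt groups.

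The median log2 fold change of the 1619 higher calls was 0.49 at low nickel and 0.39 at low chromium. That of the 1221 lower calls was -0.29 at low nickel and -0.06 at low chromium. The probes were chosen by their cobalt values, which are therefore favoured in this comparison.

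**Figure D4:**
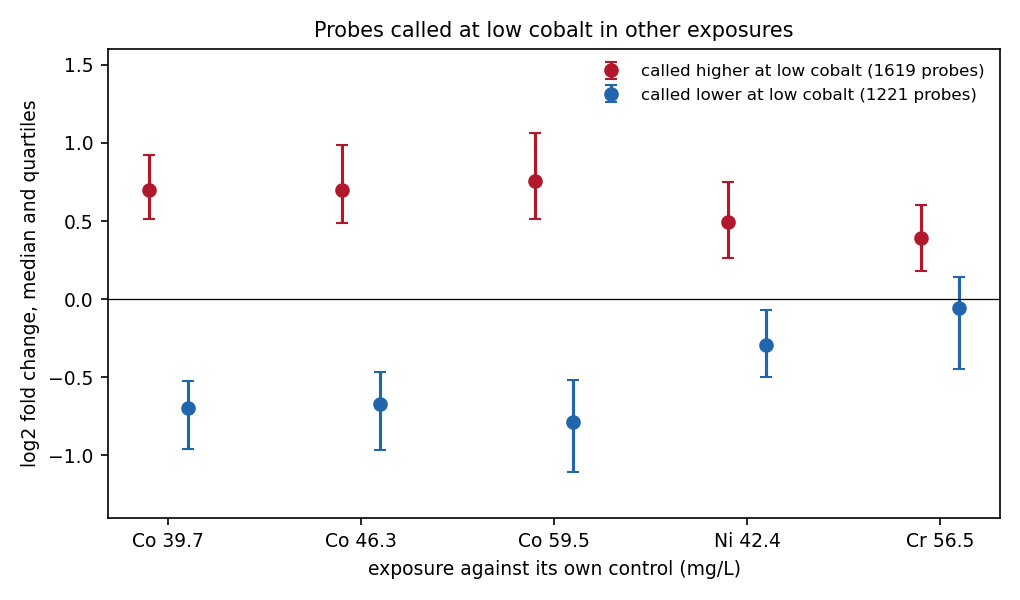
Median log2 fold change against control, with quartiles (y axis), of the probes called higher (red, 1619) and lower (blue, 1221) at low cobalt, in 5 exposures (x axis, mg/L). The 3 cobalt exposures share their controls, and the first of them chose the probes; the medians of the lower calls are -0.29 in low nickel and -0.06 in low chromium.

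Tests of the difference between effects, fitted over all 48 arrays, passed 614 probes for cobalt against nickel, or 1.40%, with the signed effect higher in cobalt for 294 (0.673%) and lower for 320 (0.732%). Cobalt and chromium differed at 2360 probes, or 5.40%, with the effect higher in cobalt for 1293 (2.96%) and lower for 1067 (2.44%). With all arrays scaled to the spike-in rows, 209 probes passed against nickel, 85 higher in cobalt and 124 lower, and 1408 against chromium, 912 higher and 496 lower. Among the 1221 lower calls, 186 had a lower effect in cobalt than in nickel and 526 a lower effect than in chromium. The difference passed the other way for 2 of them against nickel and 64, or 5.24%, against chromium. Among the 1619 higher calls, 109 exceeded nickel and 296 exceeded chromium, and 4 and 6 passed the other way. The same cobalt arrays chose the probes and enter these differences, and the nickel and chromium controls are labelled as shared.

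Probes that rose at low cobalt and exceeded both other metals numbered 84, from 66 transcripts, and 56 of them changed at least 2-fold. Their median log2 fold change was 1.25 in cobalt, 0.19 in nickel and 0.04 in chromium. Probes that fell and lay below both other metals numbered 158, from 124 transcripts, with 89 of at least 2-fold and medians of -1.12, 0.04 and 0.30. Both sets had to pass both differences on the same arrays, so this filter sets their medians far apart in advance. The medians describe the 2 sets and are no test. Over all probes, 0.412% exceeded both metals and 0.487% lay below both. With spike-in scaling of the 48 arrays these counts became 29 and 73. Opposite calls at low cobalt and low chromium were found for 28 probes higher in cobalt, with medians of 0.90 and -1.07, and 71 lower in cobalt, with medians of -0.86 and 0.59. The 28 were 1.73% of the higher calls, where low chromium lowered 5.59% of all probes. The 71 were 5.81% of the lower calls, close to the 5.68% of all probes that low chromium raised. Opposite calls on the same arrays fix the outcome of a test of their difference, so none is given for them.

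The named increases differed between the metals. The named transcripts were chosen by their low-cobalt change, and the same arrays enter these differences, which favours a larger effect in cobalt. The p-values for these differences are therefore no independent test. ENSDART00000055287_2 rose at low nickel from a range of 8.41 to 9.62 to one of 12.95 to 13.45, a log2 fold change of 4.16 ± 0.26 (SE), and the difference from cobalt, 0.33 ± 0.39 (SE), did not pass with a limma adjusted p of 0.836. At low chromium its log2 fold change was 1.50 ± 0.27 (SE), and cobalt exceeded it by 3.00 ± 0.39 (SE), adjusted p 5.11e-07 by the same test. The other probe, ENSDART00000055287_1, rose more in cobalt than in nickel, by 1.64 ± 0.29 (SE), limma adjusted p 0.000535. The 2 probes of this transcript thus gave different answers on cobalt against nickel. Their baselines differed too. ENSDART00000055287_2 averaged 9.87 ± 0.44 in cobalt controls and 8.99 ± 0.62 in nickel-labelled controls, and 14.37 and 13.16 after low cobalt and low nickel. ENSDART00000055287_1 averaged 5.61 ± 0.04 and 5.48 ± 0.19 in these controls, and 11.60 and 9.82 after exposure (SD, n = 4 each). The part of the baselines in the 2 answers was not tested.

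ENSDART00000010477_1 also rose at low nickel, by a log2 fold change of 3.75 ± 0.22 (SE), which differed from cobalt by 0.44 ± 0.38 (SE), limma adjusted p 0.742. At low chromium its arrays lay between 6.75 and 7.36 against 6.23 to 7.33 in controls, so the groups overlapped, and its log2 fold change was 0.43 ± 0.28 (SE), adjusted p 0.435 by the same test. Cobalt exceeded chromium by 3.76 ± 0.38 (SE), limma adjusted p 1.4e-09. The other probe, ENSDART00000010477_2, rose at low nickel by a log2 fold change of 2.85 ± 0.30 (SE). Cobalt exceeded nickel there by 1.02 ± 0.37 (SE), a larger difference that did not pass either, with a limma adjusted p of 0.207.

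ENSDART00000082927_1 fell in all 3 metals, by a log2 fold change of -0.81 ± 0.17 (SE) at low nickel and -1.09 ± 0.22 at low chromium, with limma adjusted p-values of 0.00623 and 0.00417. The cobalt effect was larger than both, with differences of -2.34 ± 0.42 and -2.06 ± 0.42 (SE) and limma adjusted p-values of 0.000934 and 0.000929. ENSDART00000076172_y_2 was spread widely elsewhere, from 7.52 to 10.07 at low nickel and from 7.06 to 9.52 at low chromium. Its log2 fold changes there, 0.42 ± 0.64 and 0.24 ± 0.46 (SE), did not pass, with limma adjusted p-values of 0.806 and 0.864. The cobalt effect lay below them by -3.49 ± 0.77 and -3.30 ± 0.77 (SE), with limma adjusted p-values of 0.00956 and 0.00397. Its cobalt controls, which enter these differences, averaged 9.82, against 8.19 and 8.22 in the nickel-labelled and chromium-labelled controls. For ENSDART00000082927_1 the cobalt controls were the lower ones, at 11.53 against 12.52 and 12.60. Both decreases were named for their low-cobalt change on the same arrays, so these differences favour cobalt too.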

How the data were processed

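RNA from whole fish was labelled with Cy3 by a one-colour kit, per the labels' protocols. Values were used as deposited, as log2 intensity for each probe on each array, a scale inferred from their range. The sources used here name no scanner, background correction, normalization or software. Medians of the 8 arrays lay between 5.63 and 5.66, so no further normalization was applied. The 61 control rows were left out of the tests.

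With R 4.3.3 and limma 3.58.1, lmFit and eBayes were run on the 16 cobalt arrays with a coefficient per group, giving 12 residual degrees of freedom, and on all 48 arrays for differences between metals. Nickel and chromium were fitted on their own 16 arrays each. Each SE of a fold change or difference is that of its fit after eBayes and pools the spread of all groups fitted. Each contrast's p-values received a Benjamini-Hochberg adjustment across 43714 probes, and an adjusted p under 0.05 was a call, whatever its size. The members, background limit, spike-in scaling and the 42 gene lists were chosen with earlier results of these data known; the lists were not run because the IDs carry no gene names. Named are, by a fixed rule, the 2 largest increases and 2 largest decreases that passed without overlap, judged on the brighter probe of each transcript, with the other probe. Spike-in rows were the E1A control rows with a mean between log2 6 and 15 on the arrays fitted. In simulated data for low cobalt against control over 43714 probes, the fit recovered 29.9% of the probes changed 1.5-fold, 62.7% of those changed 2-fold and 100% of those changed 4-fold, with 9 false calls among 137. Noise there was independent between probes. Only 200 probes were changed, all with a mean above log2 6 on the cobalt arrays. The recovery rates thus cover neither dimmer probes nor data with as many calls as the real comparison.

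Same-numbered control and low-cobalt arrays correlated between -0.041 and 0.076 in their deviations from group means, so the numbers were not taken as pairs. Even so, the same-numbered control was the best match of the 4 for 3 low-cobalt arrays. Same-numbered correlations with low cobalt reached 0.207 at mid and 0.131 at high cobalt. A fit with the replicate number as a block is given as an alternative.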

Additional observations from a re-analysis of the deposited data

Results flagged for a closer look

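Among the named probes, control replicate 4 of ENSDART00000010477_1, at 6.21, lay apart from the other 3 controls, at 7.13 to 7.24. About 1 in 20 groups of unchanged samples would be singled out in this way by chance. Without that array the log2 fold change was 3.94, against 4.19 with it.

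Effects differed between low cobalt and low nickel at 614 probes and between low cobalt and low chromium at 2360. Of the named transcripts, cobalt exceeded nickel by 1.64 at ENSDART00000055287_1. Cobalt exceeded chromium by 3.00 at ENSDART00000055287_2, 4.09 at ENSDART00000055287_1, 3.76 at ENSDART00000010477_1 and 3.63 at ENSDART00000010477_2. The cobalt effect lay below that of nickel at ENSDART00000082927_1 (-2.34), ENSDART00000082927_2 (-2.32), ENSDART00000076172_y_2 (-3.49) and ENSDART00000076172_y_1 (-2.78). It lay below that of chromium at the same probes, by -2.06, -2.02, -3.30 and -2.54. All are log2 differences past the limma threshold over 48 arrays. The transcripts were named for their low-cobalt change on the same arrays, which favours a larger effect in cobalt.

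Outside the comparison, a control row named NA in the deposited table read 6.34 on low-cobalt replicate 2, against 4.65 to 4.68 on the cobalt controls and at most 4.70 on the other 47 arrays. The sources used here do not say what this row measures.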

How the results depend on the processing

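The count of 2840 probes at low cobalt stayed within 1.5 times of that value in 19 of 21 alternatives, including the 8 arrays alone (2566), all 48 arrays (4044), the replicate block (2846) and, chosen after seeing the data, leaving out both control replicate 2 and low replicate 4 (2275). Spike-in scaling was among the 19, at 2353 calls, but its lower calls numbered 527 against 1221. The total ran from 2148 to 2635 over the fits without 1 array each. The exceptions were a limit of 2-fold (605), which is narrower by construction, and leaving out replicate 4 of all 4 cobalt groups (1876). The latter fit has fewer arrays per group, and why its count fell was not tested. The descriptions of replicate 4 in the cobalt groups end in the letter b, which the labels do not explain. The difference between cobalt and nickel ran from 460 to 620 probes over the fits without 1 array each and became 209 with spike-in scaling. That between cobalt and chromium ran from 2112 to 2391 and became 1408. Decreases shared with low nickel, 363, became 186 with spike-in scaling and 215 without replicate 4. High minus low cobalt passed 642 probes with spike-in scaling (611 above low cobalt), 111 with the replicate block (59 above), and 4 to 110 without 1 low array each; the cause was not tested. The replicate block changed no other count by over 1.5 times. Mid minus low cobalt passed 0 in the 6 alternatives run. The 8 probes of the named transcripts kept their direction and their side of the threshold at low cobalt under the 19 alternatives run for them. Among their differences between metals, ENSDART00000076172_y_1 against nickel no longer passed without low replicate 4 (adjusted p 0.0646) or control replicate 4 (adjusted p 0.0686). Near background few probes were called, 0.288% of those with a mean at or below log2 5.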
